A study of Mus musculus with 6 samples.

Results

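The angiopoietin and platelet-derived growth factor (PDGF) systems of the mouse proximal pulmonary artery (PA) were described by 10 genes, chosen by symbol from the 53647 genes counted. They are the ligands Angpt1 and Angpt2, their receptor Tek (also called TIE2) and the related receptor Tie1, the ligands Pdgfa, Pdgfb, Pdgfc and Pdgfd, and the receptors Pdgfra and Pdgfrb. Single cell RNA sequencing libraries of the main PAs of C57BL/6J wild-type mice were compared, 2 young (3 months each) and 4 old (20, 24, 27 and 28 months). The labels give a sex for the second young library and the 28-month library (female) and for the 27-month library (male), and the study describes the mice of 20 and 24 months as male. The study counts 3 young mice of both sexes, whereas 2 young libraries were at hand, and which of these mice they hold is not stated. The arteries were taken with surrounding tissue and dissociated with enzymes, and old mice came partly from an outside aging colony, so age and origin cannot be fully told apart. No mouse carried an allele or received a treatment that sets a group apart.

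Angiopoietin 1 is made by mural and mesenchymal cells and activates the receptor tyrosine kinase TIE2 on endothelium, which keeps vessels quiescent, whereas angiopoietin 2 is a context-dependent partial agonist or antagonist of the same receptor, and TIE1 modulates TIE2 as a co-receptor without a ligand that is firmly established. PDGF-B from endothelium recruits mural cells that carry PDGFRβ, and PDGF-A and PDGF-C act mainly on PDGFRα, the receptor that marks fibroblasts. PDGF-C and PDGF-D are secreted with a CUB domain that must be cut off before they bind, and PDGF-D acts mainly on PDGFRβ.

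Cell types were named by marker lists from clusters built without the 10 genes. A cluster is said to be led by genes that were among its 10 top genes, though not always the highest. FBs are fibroblast-like, SMCs smooth muscle-like and ECs endothelial-like cells. Macrophages are cells of clusters with 6 or more of the 11 genes of the perivascular macrophage list. The cluster led by Prg4 and Slpi had 6, and that led by Cxcl2 and H2-Eb1 had 7. The latter held 408 of the 454 macrophages of the first young library. Not every such cluster was named. A cluster led by Retnla and Lyz2, with 10 of the 11 genes, was left out of the macrophages. So was a cluster led by C1qa and C1qb, with 8. The name macrophage thus spans clusters of unlike score. Levels are given in CPM, the unique molecular identifiers (UMIs, tags of single RNA molecules) of a gene summed over the cells of a type in a library and scaled so that all UMIs of those cells add up to 1e6. Each system was split across the wall. Angpt1 was found in FBs, in old SMCs and in part of the ECs, Angpt2 in SMCs, and Tie1 almost wholly in ECs, but Tek was found in FBs as well as in ECs. Among the PDGF genes, Pdgfd was spread over SMCs, FBs, ECs and mesothelial cells, Pdgfb over ECs and macrophages, Pdgfra was highest in FBs and Pdgfrb in SMCs and FBs, and Pdgfc reached 497 CPM in macrophages of the 28-month library against 0 to 4.35 CPM in the young ones. No change of any of the 10 genes with age passed the main test across all genes that met its filter. Alternative fits given below called Pdgfc in macrophages and Pdgfd in SMCs.

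Libraries held 6355125 to 50436562 UMIs in all, and 935 to 4067 cells each with a median of 801.5 to 8150 UMIs. Both young libraries and the 24-month library were shallow, with medians from 801.5 to 841 UMIs per cell, and they shared 131 to 215 cell barcodes with each other against at most 4 in other pairs, nearly all in airway epithelial-like cells. FBs of the young, 20-month and 24-month libraries fell mainly into 1 cluster of low UMIs (median 943, but 2821 in its 20-month cells). Those of 27 and 28 months mainly formed the 2 clusters described below, called led by Pi16 and led by C3 and Abca8a. Pi16 was the top gene of the cluster of low UMIs. In the cluster called led by Pi16 it came after Igfbp5 and Clec3b. Depth and cluster thus moved with the library, and only in part with age. The young libraries held 91 and 29 FBs, 26 and 35 SMCs, 83 and 63 ECs and 454 and 66 macrophages, and SMCs of the 24-month library (5 cells) were left out. The 20-month library held 3113 counts of Xist beside 8488 of the Y-linked gene Ddx3y, but only 25 of Eif2s3y, 17 of Kdm5d and 77 of Uty. Xist and Ddx3y were at 437 and 556 counts in the first young library and at 335 and 905 at 24 months. In the second young library, labelled female, they were at 1300 and 210. The sex genes of all these libraries thus pointed both ways. Fewer cells of a type and less RNA per cell cannot be told apart in the free RNA of a library, the barcodes of 10 to 100 UMIs whose values are given below where they matter.

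**Figure D1:**
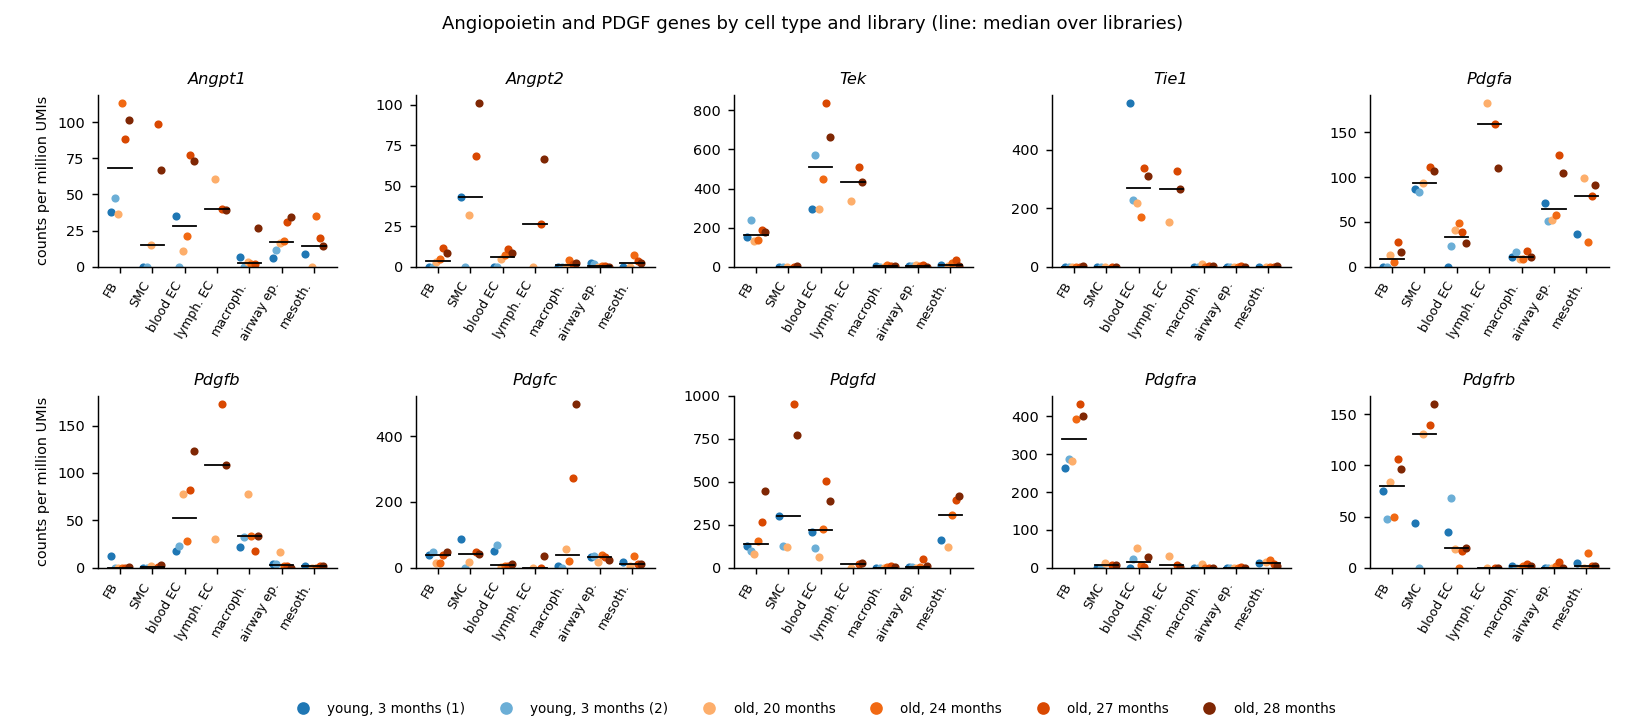
Level of each of the 10 genes (CPM, linear axis) in 7 cell types, with 1 point per library (blue young, orange to brown old) and a line at the median over libraries. Tie1 stayed at 0 to 1.13 CPM in FBs while Tek lay between 131 and 239 CPM there, and the 2 highest Pdgfc points are the macrophages of 27 and 28 months.

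Angpt1, the agonist of TIE2, was measured in FBs at 36.8, 113, 88.6 and 101 CPM in the libraries of 20, 24, 27 and 28 months and at 37.5 and 47.8 CPM (3 counts and 1 count) in the young ones. The 20-month library lay below both young libraries, so the ages overlapped. In SMCs Angpt1 reached 14.8, 98.97 and 66.8 CPM at 20, 27 and 28 months (7, 2156 and 412 counts), and none was counted in the 2 young libraries. That absence had little depth behind it, since 3 counts over both young libraries would be 63.8 CPM, above the 20-month value and above the mean of the old libraries (60.2 CPM, SD 42.5, n = 3), so no fold is given. In ECs the values were 11.9, 20.9, 72.4 and 68.2 CPM in the old libraries in order of age and 35.01 and 0 CPM in the young, which overlap. The medians over libraries ran from 68.2 CPM in FBs over 39.9 CPM in lymphatic ECs, 28.1 CPM in blood ECs and 16.96 CPM in airway epithelial-like cells to 14.8 CPM in SMCs, and the ranges of all these neighbours overlapped. Free RNA held 106.8 and 60.8 CPM of Angpt1 in the young libraries and 13.8 to 49.4 CPM in the old, as much as or more than most cell types, and its part in the low values was not tested.

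Angpt1 differed between clusters of 1 cell type. In FBs led by C3 and Abca8a it was 144 and 153 CPM at 27 and 28 months, and in FBs led by Pi16, a gene of adventitial progenitor-like fibroblasts, it was 43.7 and 48.2 CPM. In blood ECs led by Vwf and Bmx (193 and 453 cells) it was 94.2 and 98.1 CPM. By comparison, ECs led by Fabp4 and Gpihbp1, genes of capillary endothelium, held 18.9 and 9.15 CPM. Both old libraries that have these clusters thus put Angpt1 in the same order.

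Angpt2, the context-dependent ligand, was mainly a gene of SMCs. Its level there was 31.7, 68.3 and 101 CPM at 20, 27 and 28 months and 43.4 and 0 CPM in the young libraries, the former from 1 count. Old and young SMCs overlapped, and the ratio of the summed CPM was 3.52 with a 95% counting interval from 0.631 to 139. FBs held 2.63 to 11.7 CPM in the old libraries and no count in the young, and ECs 4.74 to 16.5 CPM and no count, both below what 3 young counts would give (29.7 and 29.5 CPM). Within the endothelium Angpt2 was concentrated in the cells led by Fabp4 and Gpihbp1, with 114 and 45.8 CPM at 27 and 28 months, and in lymphatic ECs, with 26.6 and 66.8 CPM. The first value rests on 12 counts in 5 of 28 cells, 7 of them in 1 cell. The second rests on 20 counts in 17 of 173 cells. In lymphatic ECs of 28 months 10 of 29 counts lay in 1 cell. The ECs led by Vwf and Bmx held 0 and 2.25 CPM in the same libraries, and those led by Epha7 and Dcn held none.

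**Figure D2:**
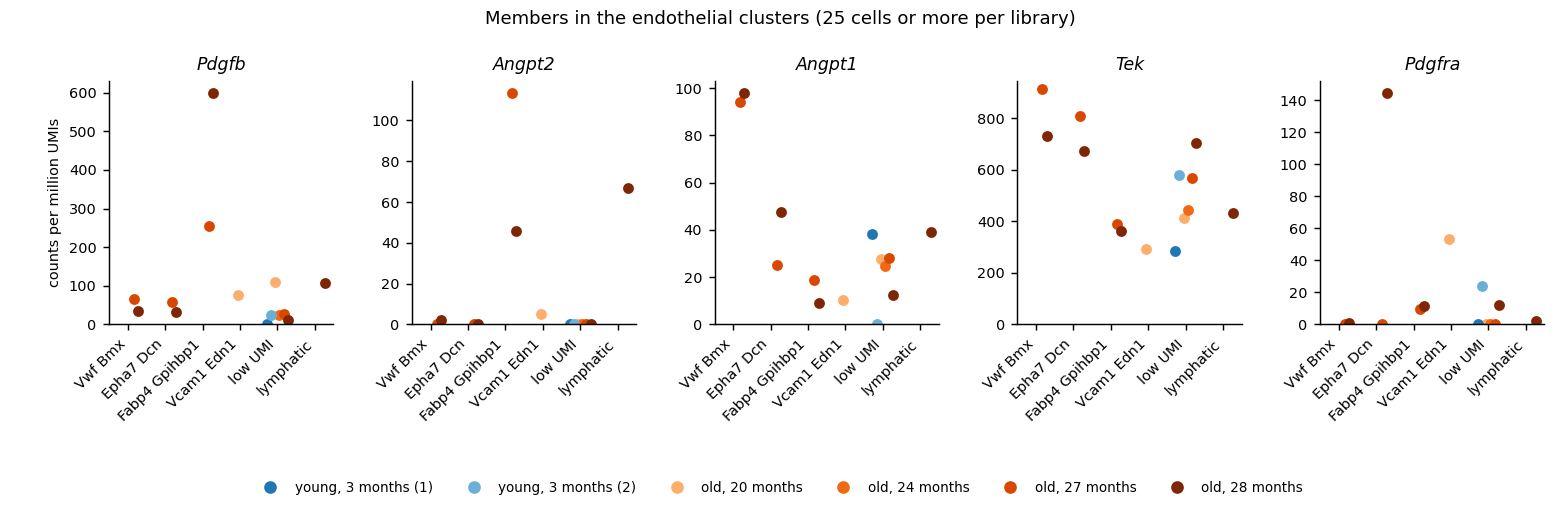
Levels of 5 of the genes (CPM, linear axes) in the endothelial clusters, with 1 point per library that has 25 cells or more of the cluster. At 27 and 28 months the cells led by Fabp4 and Gpihbp1 held the highest Pdgfb (255 and 600 CPM) and less Tek (388 and 362 CPM) than those led by Vwf and Bmx.

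Tek, the angiopoietin receptor, was highest in ECs, with 296, 446, 798 and 632 CPM in the old libraries in order of age and 298 and 560.2 CPM in the young. FBs held 131, 138, 186 and 176 CPM in the old and 150.0 and 239 CPM in the young libraries (12 and 5 counts). Every library thus had Tek in its FBs, at a level below that of its own ECs, and the FB range did not overlap that of the ECs. SMCs held none in 3 libraries and 1.01 and 1.14 CPM at 27 and 28 months, and macrophages at most 8.47 CPM. In the 28-month library 372 of 816 FBs had a Tek count, against 6 of 961 SMCs, at median depths of 6382.5 and 6622 UMIs. At 27 months the numbers were 221 of 494 FBs and 19 of 2347 SMCs, at 5712.5 and 9329 UMIs. Free RNA held 26.4 to 80.3 CPM of Tek, below the value of all FBs of each library. Some FB clusters lay within that range. The FB cluster of low UMIs at 28 months held 41.5 CPM, against 63.5 CPM in the free RNA of that library. The part of free RNA in the Tek counts of FBs was not tested.

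Tie1, the partner receptor, was not shared in this way. ECs held 217, 167, 337 and 305 CPM in the old libraries in order of age and 560.1 and 224 CPM in the young, whereas FBs held no count in 4 libraries, 1 count at 27 months and 6 counts at 28 months (0.343 and 1.13 CPM). In the 2 young libraries together, 0 counts of Tie1 in FBs allow up to 29.7 CPM, far under the EC values. Cdh5, the endothelial junction protein VE-cadherin, was at 0 to 4.93 CPM in FBs and at 536 to 836 CPM in ECs. The blood endothelial marker list summed to 376 to 764 CPM in FBs and to 6969 to 10362 CPM in ECs. FBs with a Tek count held 438 CPM of that list at 28 months and those without held 291 CPM, against 576 and 352 CPM at 27 months. The former also held more at 20 months (808 and 566 CPM) and in the young libraries (484.5 and 459 CPM, 1742 and 609 CPM). At 24 months they held less (314 and 519 CPM). The part of endothelial RNA in the Tek counts of FBs was not tested. In all 816 FBs of 28 months 3 counts of Cdh5 were found. In those FBs with Tek the matrix gene Dcn, a fibroblast marker, was at 9353 and 8994 CPM at 27 and 28 months, and in those without Tek it was higher, at 13314 and 10533 CPM.

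**Figure D3:**
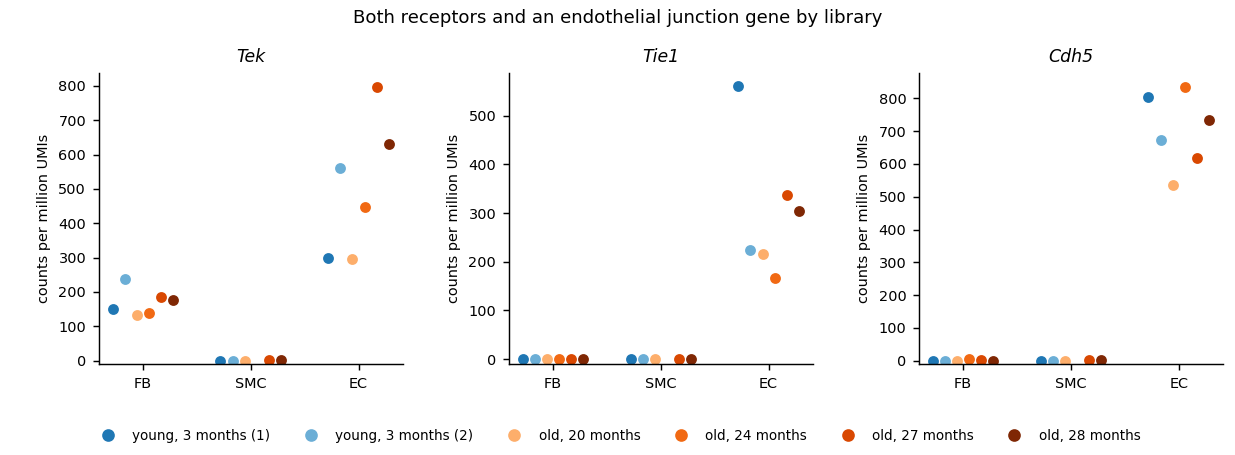
Tek, Tie1 and the endothelial junction gene Cdh5 (CPM, linear axes) in FBs, SMCs and ECs, with 1 point per library. Tek lay between 131 and 239 CPM in FBs of all 6 libraries, where Tie1 and Cdh5 were at or near 0.

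Tek also separated the FB clusters, although it took no part in making them. FBs led by Pi16 held 279 and 283 CPM at 27 and 28 months (161 of 214 and 223 of 284 cells), and FBs led by C3 and Abca8a held 73.5 and 79.4 CPM (58 of 250 and 146 of 464 cells). The FB cluster of low UMIs held 134 and 138 CPM at 20 and 24 months, 61.7 and 41.5 CPM at 27 and 28 months, and 149 and 239 CPM in the young libraries. Pi16 itself was at 4512 and 2324 CPM in the first cluster and at 8094 and 5160.3 CPM in the young FBs of the cluster of low UMIs. The Tek values of the first cluster thus do not stand for all FBs high in Pi16. In the endothelium Tek was 913 and 732 CPM in cells led by Vwf and Bmx, 807 and 674 CPM in those led by Epha7 and Dcn, and 388 and 362 CPM in those led by Fabp4 and Gpihbp1.

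Because Tek and Tie1 parted in FBs, the 250 bases before their start sites are shown, as RefSeq gives them for GRCm38.p6. Promoter windows were listed for 6 of the 10 genes. Capitals mark AGGAAG or its reverse complement CTTCCT, a hexamer around the core that ETS family factors bind, searched on both strands without overlap with another motif. The Tek window lies at chr4:94739039-94739288 on the plus strand and the Tie1 window at chr4:118489850-118490099 on the minus strand.
Tek: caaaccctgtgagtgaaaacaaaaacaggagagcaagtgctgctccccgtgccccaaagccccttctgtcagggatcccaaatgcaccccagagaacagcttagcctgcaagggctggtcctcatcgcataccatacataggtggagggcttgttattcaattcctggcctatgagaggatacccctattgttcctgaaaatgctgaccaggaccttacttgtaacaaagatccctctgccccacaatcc
Tie1: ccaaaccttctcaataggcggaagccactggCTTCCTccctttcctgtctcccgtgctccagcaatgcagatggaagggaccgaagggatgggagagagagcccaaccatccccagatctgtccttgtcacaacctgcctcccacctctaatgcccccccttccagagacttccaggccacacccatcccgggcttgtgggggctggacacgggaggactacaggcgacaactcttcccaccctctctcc
The window of Tie1 held 1 match and that of Tek 0, and 29.5% of 32851 windows of this length held at least 1. The match is a description of letters. Shorter GGAA or TTCC cores occur unmarked in both windows, so 0 matches of the hexamer does not mean a window without a core. Nothing is drawn from the windows for the levels in FBs.

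**Figure D4:**
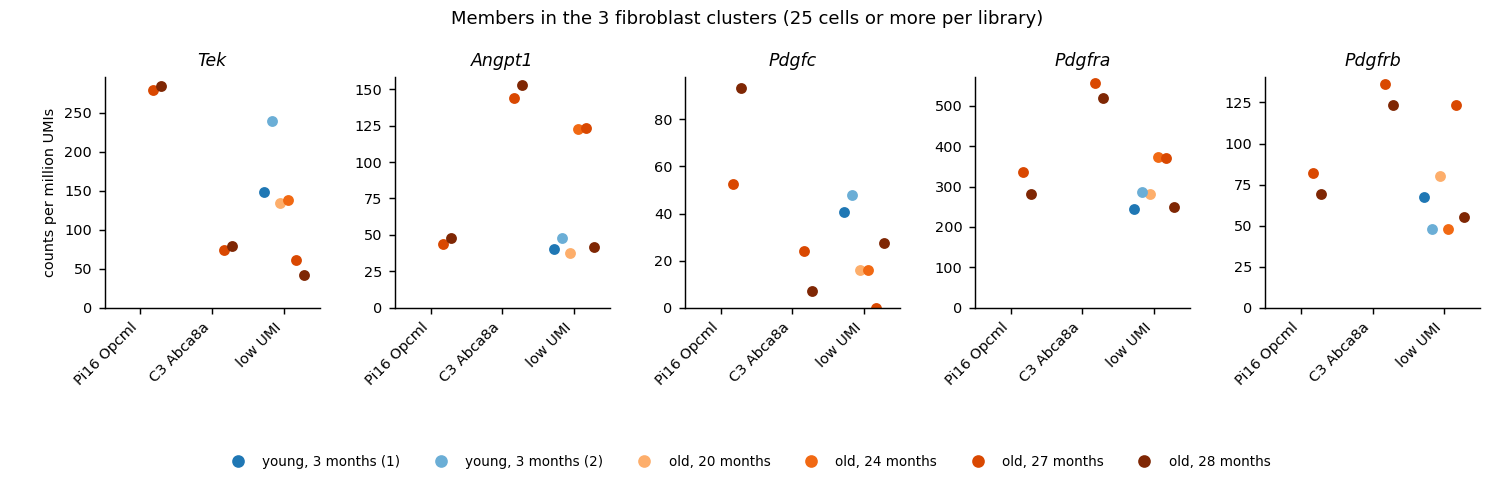
Levels of 5 of the genes (CPM, linear axes) in the 3 FB clusters, with 1 point per library that has 25 cells or more of the cluster. Both old libraries with the Pi16 and C3 Abca8a clusters put Tek and Pdgfc higher in the former and Angpt1, Pdgfra and Pdgfrb higher in the latter. The FB cluster of low UMIs also had Pi16 as its top gene.

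Pdgfa, a ligand of PDGFRα, was steady in SMCs, with 93.1, 112 and 107 CPM at 20, 27 and 28 months and 86.7 and 83.5 CPM in the young libraries (2 counts each). The lowest old value was above the higher young one, by less than the SD of the old (9.69, n = 3) in the closest pair. Lymphatic ECs held 183, 159 and 111 CPM at 20, 27 and 28 months, airway epithelial-like cells 50.5 to 124 CPM over all libraries and mesothelial-like cells 28.1 to 99.4 CPM. The airway range overlapped both others, whereas the lymphatic EC range lay above the mesothelial one. ECs held 37.7 to 53.7 CPM in the old libraries and 0 and 22.4 CPM in the young, the latter from 1 count, with a ratio of the summed CPM of 4.35 and a 95% counting interval from 0.774 to 172. FBs held 4.93 to 27.5 CPM in the old libraries and no count in the young.

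Pdgfb, the endothelial ligand that recruits mural cells, was found in ECs at 77.05, 27.9, 92.8 and 121 CPM in the old libraries in order of age and at 17.5 and 22.4 CPM in the young, from 1 count each. The old and young values did not overlap, and the ratio of the summed CPM was 5.16 with a 95% counting interval from 1.42 to 42.7. Macrophages held 77.4, 33.9, 17.96 and 34.1 CPM in the old and 21.7 and 32.6 CPM in the young libraries, which overlap. FBs and SMCs held at most 2.76 CPM, except for 1 count in FBs of the first young library. Lymphatic ECs, counted among the ECs above, held 30.5 to 173 CPM in 3 old libraries, and the young libraries held 0 and 1 such cells. Blood ECs alone held 28.1 to 123 CPM in the old libraries and 17.5 and 22.8 CPM in the young. Among blood ECs Pdgfb was highest in the cells led by Fabp4 and Gpihbp1, at 255 and 600 CPM at 27 and 28 months, against 64.9 and 35.5 CPM in those led by Vwf and Bmx. The young ECs fell almost wholly into the EC cluster of low UMIs, which held 0 and 24.2 CPM in them. In the old libraries that cluster held 110, 24.6, 28.3 and 12.4 CPM in order of age.

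Pdgfc, a ligand of PDGFRα, differed most between libraries in macrophages. It was 56.5, 21.2, 272 and 497 CPM at 20, 24, 27 and 28 months (19, 10, 348 and 1256 counts) and 4.35 and 0 CPM in the young libraries (2 and 0 counts). The old libraries all lay above the young ones, and the ratio of the summed CPM was 92.3 with a 95% counting interval from 25.5 to 762, which covers counting error only. The macrophages of the ages were held by different clusters. Those of 27 and 28 months lay mainly in the cluster led by F13a1 and Mrc1, genes of resident perivascular macrophages, where Pdgfc was 277 and 517 CPM and had a count in 132 of 209 and 279 of 391 cells. Those of the first young library and of 24 months lay mainly in the cluster led by Cxcl2 and H2-Eb1, a class II gene, where Pdgfc was 2.40 and 25.1 CPM (1 of 408 and 7 of 300 cells). That cluster held 57.0 CPM at 28 months from 6 counts, 5 of them in 1 of its 40 cells. The 20-month macrophages, led by Retnla and Ccl4, held 66.9 CPM, and the cluster led by Prg4 and Slpi held none in 3 libraries. That cluster held 36 of the 66 macrophages of the second young library. The unnamed cluster led by Retnla and Lyz2, not counted in the values above, held 36.7 CPM at 28 months (23 counts, 64 cells). Median depth of the 2 large clusters differed too, with 5857 and 5788 UMIs in the former and 929.5 and 919 UMIs in the latter for the libraries named.

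The perivascular marker list was also highest at 27 and 28 months, and its part in the Pdgfc difference was not tested. It summed to 12875, 5401, 29483 and 27119 CPM in macrophages of 20, 24, 27 and 28 months and to 5842 and 11854 CPM in the young ones, with all 11 genes seen in each library. The scavenger receptor gene Cd163 was 912 and 1034.5 CPM in the cluster led by F13a1 and Mrc1 and 149 and 323 CPM in the young cells led by Cxcl2 and H2-Eb1. Outside macrophages Pdgfc was low beside the macrophages of 27 and 28 months only. The medians over libraries were 42.5 CPM in SMCs, 38.9 CPM in macrophages and 38.5 CPM in FBs. Young FBs, ECs and airway epithelial-like cells lay above young macrophages. FBs held 14.8 to 48.5 CPM over all libraries, SMCs 16.9 to 47.3 CPM in the old and 86.7 (2 counts) and 0 CPM in the young (ratio of the summed CPM 1.08, 95% counting interval from 0.297 to 8.89), and airway epithelial-like cells 16.2 to 37.6 CPM. ECs held 2.96, 6.97, 4.07 and 14.02 CPM in the old libraries in order of age and 52.5 and 67.2 CPM in the young, from 3 counts each, beside 48.5 and 24.5 CPM in the free RNA of the young libraries. Within FBs it was 52.4 and 93.3 CPM in the cells led by Pi16 and 24.2 and 7.05 CPM in those led by C3 and Abca8a at 27 and 28 months, although 45 of the 236 counts in the former at 28 months came from 1 cell.

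**Figure D5:**
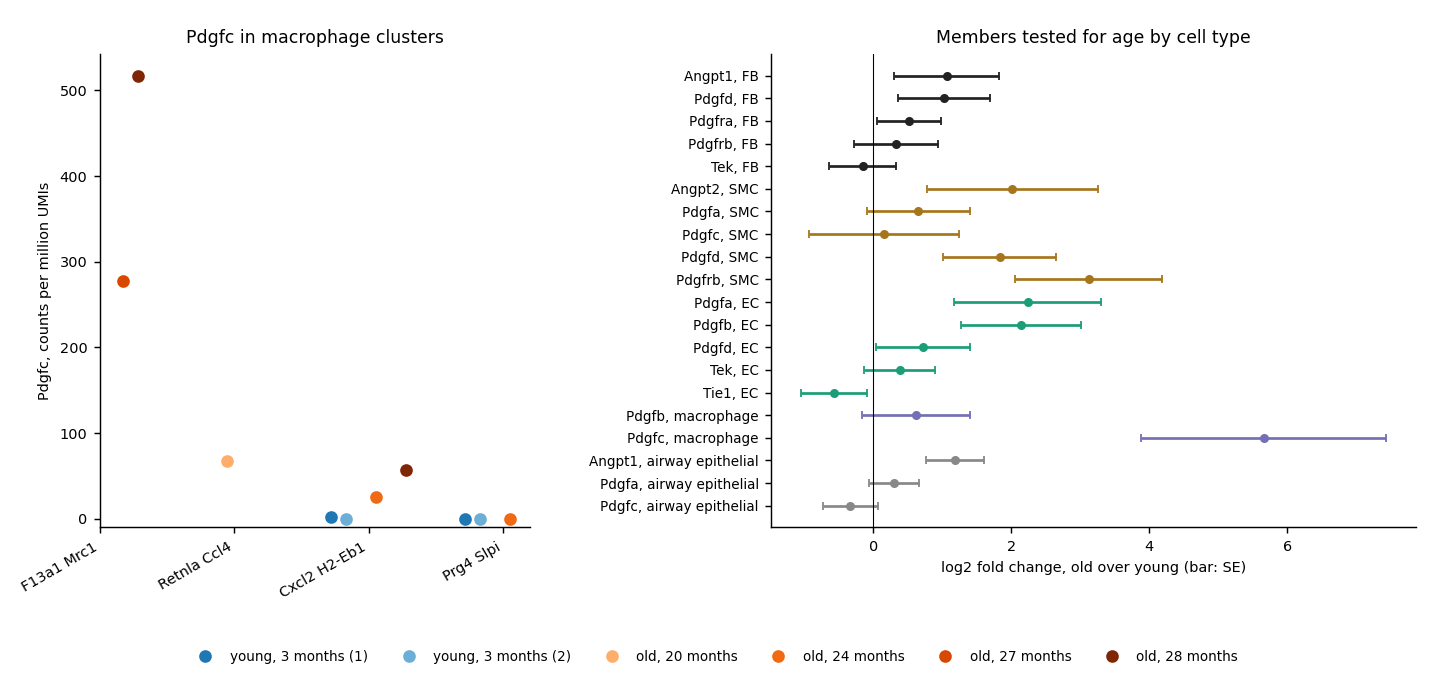
Left, Pdgfc (CPM, linear axis) in the macrophage clusters, with 1 point per library that has 25 cells or more; right, log2 fold changes of old over young with their standard errors for each gene and cell type tested. The cluster led by F13a1 and Mrc1 has points of the 27-month and 28-month libraries at 277 and 517 CPM. For genes that passed the filter through old libraries only, the filter favoured a fold change above 0.

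Pdgfd, a ligand of PDGFRβ, was found in SMCs, FBs, ECs and mesothelial-like cells. SMCs held 123, 953 and 771 CPM at 20, 27 and 28 months and 304 and 125 CPM (7 and 3 counts) in the young libraries. The 20-month library lay below both young libraries and far below the other old ones. FBs held 78.8, 158, 267 and 449.6 CPM in the old libraries in order of age and 125 and 95.6 CPM in the young. ECs held 62.2, 223, 448 and 342 CPM in the old and 210.0 and 112 CPM in the young, and mesothelial-like cells 119 to 417 CPM in 5 libraries. In each of these types the 20-month library was the lowest of the old ones and the ages overlapped. Lymphatic ECs, in contrast to blood ECs, held 0, 19.9 and 25.3 CPM, and macrophages at most 7.81 CPM. Free RNA held 34.2 to 119.9 CPM of Pdgfd. SMCs of low UMIs held 459 and 406 CPM at 27 and 28 months against 982 and 788 CPM in the largest SMC cluster that both libraries share. Median depth of the former was 1212 and 1282 UMIs. The 20-month SMCs, with a median of 3067 UMIs, held less Pdgfd than these, and the part of depth was not tested. Young SMCs lay almost wholly in the SMC cluster of low UMIs.

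Pdgfra, the receptor that marks fibroblasts, was 281, 394, 433 and 401 CPM in FBs of 20, 24, 27 and 28 months and 263 and 287 CPM in young FBs. These values overlapped between the ages and were above those of every other named type in all libraries. The next highest among types measured in 3 or more libraries were blood ECs with a median of 14.9 CPM and a range from 0 to 52.0 CPM. An unnamed cluster led by Cxcl13 and Ccl2, with 5 of 10 genes of the fibroblast list, held 439 CPM in the first young library (25 counts, 28 cells). FBs led by C3 and Abca8a held 555 and 518 CPM and FBs led by Pi16 held 336 and 281 CPM at 27 and 28 months. The endothelial counts were not spread evenly. At 28 months 18 of the 85 ECs led by Epha7 and Dcn had Pdgfra, giving 145 CPM, while the 32 such cells of 27 months had none, and at 20 months 36 of the 622 ECs led by Vcam1 and Edn1 had it, giving 53.3 CPM. In these 18 and 36 cells Cdh5 was at 646 and 558 CPM and Col1a1, a fibroblast collagen gene, at 0, where the other cells of those clusters held 602 and 536 CPM of Cdh5 and 49.6 and 15.2 CPM of Col1a1. The fibroblast list and Dcn were higher in the cells with Pdgfra, and the endothelial gene Pecam1 was lower. The fibroblast list summed to 6876 and 2969 CPM with Pdgfra and to 6045 and 1309.6 CPM without, and Dcn was at 6265 and 2574 CPM with and at 4989 and 778 CPM without. Pecam1 was at 1392 and 957 CPM with and at 2665 and 2502.5 CPM without, and the part of fibroblast RNA in the Pdgfra counts was not tested. The cells with Pdgfra held 433 and 245 CPM of Npr3, the natriuretic peptide clearance receptor, and 945 and 382 CPM of the matricellular gene Postn, against 390 and 67.4 CPM and 308 and 70.3 CPM in the other cells of those clusters.

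Pdgfrb, the mural receptor, was 131, 139.6 and 160.1 CPM in SMCs of 20, 27 and 28 months and 43.4 and 0 CPM in the young libraries, where 1 count was found in 61 SMCs. Old SMCs differed little among themselves, with a mean of 144 CPM and an SD of 14.9 (n = 3), and the ratio to the young was 6.76 with a 95% counting interval from 1.21 to 267. That ratio rests on the young library without a count, since without it the log2 fold change given below fell from 3.12 to 2.16 (SE 0.99, adjusted p = 0.714 by edgeR), and without the other one no young count was left. FBs held 84.1, 49.3, 106 and 96.9 CPM in the old libraries in order of age and 75.01 and 47.8 CPM in the young, which overlap each other and do not overlap the old SMCs. Free RNA held 7.34 to 33.8 CPM. The pericyte marker list summed to 626 to 1618 CPM in SMCs with no order by age, and no cluster was named after pericytes, so Pdgfrb of pericytes and of SMCs cannot be told apart here. FBs led by C3 and Abca8a held 136 and 124 CPM at 27 and 28 months and those led by Pi16 held 81.8 and 69.6 CPM.

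The comparison of old with young in each cell type asked whether any of these genes changed with age. Counts were summed per library and type and tested with edgeR's quasi-likelihood F test, with adjustment over all genes of the type. Of 50 pairs of gene and type in the 5 types with any member tested, 20 passed the filter (over 5% of cells with a count in 3 libraries), and in B-like cells none did. None of the 20 was called at an adjusted p of 0.05, beside 0.0444% of 6760 genes in FBs (Itm2a, Mmp3 and Ttll12, 419 genes having an unadjusted p under 0.05), 0% of 6782 in SMCs (563), 0% of 6011 in ECs (383), 0% of 5795 in macrophages (297), 0% of 8256 in airway epithelial-like cells (503) and 0% of 2905 in B-like cells (188). DESeq2 called none of the 20 either, and called 2, 3, 0, 3, 1 and 0 genes in these types in the same order. The p-values measure the spread between these libraries. The study gives a separate mouse for each old age, and which mice the young libraries hold is not stated. Young libraries of 20929 to 79991 UMIs of a mesenchymal or endothelial type left room for large changes that were not detectable.

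Of the 20 log2 fold changes, 17 were above 0 and 3 below, and 5 had an unadjusted p under 0.05. Some passed the filter through old libraries only, as given below, so nothing is drawn from this split. The medians of all genes tested were above 0 too. They were 0.19 in FBs, 0.50 in SMCs, 0.21 in ECs, 0.07 in macrophages and 0.02 in airway epithelial-like cells. In FBs the log2 fold changes were 1.06 for Angpt1 (SE 0.76), 1.03 for Pdgfd (SE 0.67), 0.52 for Pdgfra (SE 0.47), 0.33 for Pdgfrb (SE 0.61) and −0.15 for Tek (SE 0.49), with adjusted p from 0.822 to 1.00. In SMCs they were 3.12 for Pdgfrb (SE 1.06, unadjusted p = 0.00858 and adjusted p = 0.585 by edgeR), 2.02 for Angpt2 (SE 1.24), 1.83 for Pdgfd (SE 0.82, unadjusted p = 0.0384 and adjusted p = 0.585 by edgeR), 0.65 for Pdgfa (SE 0.74) and 0.15 for Pdgfc (SE 1.09). The median of all genes in SMCs was 0.50, and 0.14 without TMM scaling, so a shift of 0.36 belongs to the scaling, and against that median Pdgfa of SMCs lay near and Pdgfc below the other genes. In ECs the values were 2.24 for Pdgfa (SE 1.07), 2.13 for Pdgfb (SE 0.87, unadjusted p = 0.0289 and adjusted p = 0.782 by edgeR), 0.72 for Pdgfd (SE 0.68), 0.38 for Tek (SE 0.51) and −0.57 for Tie1 (SE 0.48). With a term for the 3 libraries that share barcodes, Pdgfb fell to 0.63 (SE 0.95, unadjusted p = 0.605 and adjusted p = 0.990 by edgeR). Without the first young library Tek and Tie1 turned sign, to −0.06 for Tek and 0.20 for Tie1.

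Pdgfc of macrophages had the largest fold change, 5.66 on the log2 scale (SE 1.78, unadjusted p = 0.0147 and adjusted p = 0.804 by edgeR), and Pdgfb there had 0.62 (SE 0.79). With the term for the libraries that share barcodes, which leaves the 24-month library alone against the young ones, the value for Pdgfc was 2.58. Pdgfc passed the filter through old libraries only, as did Angpt1 in FBs, Angpt2 and Pdgfrb in SMCs, Pdgfa and Pdgfb in ECs, Pdgfb in macrophages and Angpt1 in airway epithelial-like cells, so that the filter favoured a higher old value in these 8 and nothing is drawn from their direction. Of them, Angpt1 in FBs, Angpt2 in SMCs and Pdgfb in macrophages overlapped between the ages. With no gene filter Pdgfc was called in macrophages (log2 fold change 5.98, SE 1.01, adjusted p = 3.35e-05 by edgeR, with 0.18% of 23903 genes called). Airway epithelial-like cells gave 1.18 for Angpt1 (SE 0.42, unadjusted p = 0.0156 and adjusted p = 0.772 by edgeR), 0.30 for Pdgfa (SE 0.36) and −0.34 for Pdgfc (SE 0.40). Of these cells, 138 and 218 in the young libraries and 203 at 24 months had a barcode also found in another library. After doublets were removed, these libraries held 256, 415 and 530 airway epithelial-like cells. They may thus not be independent in this type.

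The call for Pdgfd in SMCs depended on the 20-month library. Without it the log2 fold change was 2.37 (SE 0.41, adjusted p = 0.000306 by edgeR), and 3.94% of the 3964 genes left were called. The SMCs of that library formed a cluster of their own with 123 CPM of Pdgfd. Beside both young libraries (304 and 125 CPM) the old SMCs of 27 and 28 months then stood at 953 and 771 CPM. Their median depth was 9329 and 6622 UMIs, against 787.5 and 635 UMIs in the young SMCs. The young SMCs lay almost wholly in the SMC cluster of low UMIs, where Pdgfd at 27 and 28 months was lower, as given above. Depth, cluster and age cannot be told apart in this comparison.

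Whether the libraries of each age overlapped was read for all members, passing the filter or not. The shares given beside them are of genes that passed it, so they are no like background for members that did not. Old values lay wholly above the young ones for Angpt1, Pdgfa, Pdgfb, Pdgfra and Pdgfrb in SMCs, as they did for 22.2% of all genes tested there. The same held for Angpt2, Pdgfa and Pdgfb in ECs (12.4% of genes tested), Angpt2 and Pdgfa in FBs (16.9%), Pdgfc in macrophages (10.6%), Angpt1 in airway epithelial-like cells (8.98%) and Pdgfa in B-like cells (19.2%). Old values lay wholly below the young for Pdgfc (6 young and 56 old counts) and Pdgfrb (5 and 102 counts) in ECs, beside 7.87% of genes, and for Angpt2 (3 and 2 counts) in airway epithelial-like cells, beside 6.7%. No member did so in FBs, SMCs, macrophages or B-like cells, where 7.54%, 12.1%, 6.35% and 12.9% of genes did. Of the members named here, Angpt1, Pdgfb and Pdgfra in SMCs, Angpt2 and Pdgfa in FBs and Pdgfa in B-like cells did not pass the filter. Angpt2, Pdgfc and Pdgfrb in ECs and Angpt2 in airway epithelial-like cells did not pass it either. Most members named here had 0 to 4 young counts in the type.

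Other genes of the pathways were followed through 5 lists of 41 genes in all. The lists covered partners of the angiopoietin receptors, proteases that process PDGF ligands, PDGF-binding proteins, effectors of the PDGF receptors, and their phosphatases and ubiquitin ligases. None of the genes was called in any type. Of 32 tested in FBs, 24 had positive and 8 negative fold changes with age, and their median on the log2 scale was 0.31, where that of all genes was 0.19. In SMCs 26 were positive and 5 negative, with a median of 0.78, where that of all genes was 0.50. With the genes that had no young count put at their bound, the medians were 0.28 and 0.12 in FBs and 0.55 and 0.15 in SMCs. ECs had 22 positive and 9 negative (0.24, all genes 0.21), macrophages 20 and 8 (0.29, all genes 0.07), airway epithelial-like cells 16 and 18, and B-like cells 17 and 2 (0.39, all genes 0.09).

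The genes with the smallest p in each resident type, none of which passed, included receptors and signal carriers. Nrp1, neuropilin 1, a co-receptor that binds several growth factors, had 14 young counts in ECs and a log2 fold change of 1.54 (SE 0.65, adjusted p = 0.782 by edgeR), and in macrophages 21 young counts and 3.03 (SE 1.19, adjusted p = 0.804 by edgeR). Its level in macrophages followed the clusters as Pdgfc did, with 581 and 711 CPM in the cells led by F13a1 and Mrc1 at 27 and 28 months and 40.8 and 0 CPM in the young cells led by Cxcl2 and H2-Eb1. The others in ECs were the phosphatase gene Ptpn1 (1.97, SE 0.97) and Plcg1, phospholipase C gamma (1.41, SE 0.79), and in macrophages Tnip2, a TIE2 signalling partner with the smallest p there (1.47, SE 0.56), and Ptpn1 (1.27, SE 0.63). In FBs they were Pdgfrl, a PDGF receptor-like gene with 216 old counts and none in the young, Ptpn11, the phosphatase SHP2 (2.53, SE 1.16), and the kinase gene Akt1 (1.79, SE 0.85). In SMCs they were Map2k1, the kinase MEK1, with 1636 old counts and none in the young, Stat3 (1.80, SE 0.82) and Akt1 (2.30, SE 1.14). Some of these rest on 1 to 3 young counts, for which the ratio of the summed CPM and its 95% counting interval are given. In ECs it was 3.57 for Ptpn1 (0.983 to 29.6) and 3.10 for Plcg1 (1.06 to 15.1). In FBs it was 8.06 for Ptpn11 (1.44 to 319) and 3.99 for Akt1 (1.10 to 33.05), and in SMCs 4.17 for Akt1 (0.748 to 165). For Pdgfrl and Map2k1 the old level lay under that of 3 young counts, so no fold is given.

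The genes most like the members were sought over 53 profiles of library and cell type with at least 10 cells, from 12 types, among 13745 genes, by Pearson's r of log2 levels (CPM plus 10). These correlations are descriptions, since profiles share libraries, depth and cell types. Tie1 had Pkn3 (r = 0.98), Sox18 (0.97) and Ccm2l (0.97) as nearest genes, and Tek had Ramp2 (0.93), Ecscr (0.90) and Fgd5 (0.89), with no gene in common. Pdgfra came closest to Svep1 (0.92), Aldh1a3 (0.91) and Lum (0.91), and Pdgfrb to Scara3 (0.81), Efhd1 (0.80) and Nfatc4 (0.80). Pdgfd had Vwc2 (0.93), Gulp1 (0.92) and Mgp (0.91), Pdgfa had Thsd4 (0.87), Ift43 (0.81) and Zfp467 (0.81), and Pdgfb had Cd300lg (0.79), Stab1 (0.78) and Tal1 (0.77). Angpt2 had Nacad (0.83), Gucy1b1 (0.77) and Rnf152 (0.75), and Angpt1 had Wipi1 (0.72), Sobp (0.72) and Klhl29 (0.71).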

How the data were processed

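Proximal PA cells were profiled by droplet-based single cell RNA sequencing in 6 libraries. Per the labels and the study's methods, the authors trimmed reads with Cutadapt and mapped and counted them with STARsolo on GRCm38.p6. The deposited values are raw UMI counts per gene and barcode, neither filtered nor normalized. Barcodes were kept from 500 UMIs and 300 genes upward if no more than 20% of their UMIs were mitochondrial, and doublets were removed by their scrublet score. The automatic threshold was used for the second young and the 28-month library. In the other libraries it marked too few barcodes, and an expected share with the highest scores was removed instead. Cells were clustered in scanpy 1.11.5 (2000 variable genes without the 10 genes and the pathway lists, 40 principal components, 15 neighbours, leidenalg 0.10.2 at resolution 1.5) under Python 3.11.15, and clusters were named from marker lists. Counts were summed per library and type with at least 10 cells and fitted with edgeR 4.0.16 in R 4.3.3 (TMM, robust quasi-likelihood F test, Benjamini-Hochberg over all genes tested, no covariate), tested on simulated data. A gene was tested where over 5% of the cells had a count of it in 3 libraries. The standard error was the log2 fold change over the root of F. Alternatives were DESeq2 1.42.0, no TMM, filterByExpr, no gene filter, at least 1000 UMIs and 500 genes, doublets kept, shared barcodes left out, a term for the libraries that share barcodes, blood ECs alone, and each library left out. Beside a fold change that rests on 1 to 3 young counts a ratio of the summed CPM with its 95% counting interval is given, and beside no young count the level of 3 counts. The genes named are the 10 members, pathway genes with an adjusted p under 0.05 or otherwise the 3 with the smallest p per resident type, and the 3 most correlated genes per member, apart from those of Pdgfc, which are not reported here. Others, such as cluster markers, were named after their values were seen. The members and lists were chosen with earlier results of these data known. Gene identifiers were used by symbol, without coordinates.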

Additional observations from a re-analysis of the deposited data

Results flagged for a closer look

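Among 44 groups of 4 old libraries with at least 10 counts of a gene in a cell type, 4 held a library whose gap to the nearest other exceeded 0.829 of the group's range. Chance marks about 1 in 20 such groups. Angpt1 in T or NK-like cells was 29.04 CPM at 28 months (14 counts in 5 of 95 cells) and 0 in the other old libraries. These cells also held 78.8 CPM of Tek and 994 CPM of the blood endothelial list, against 40.3 to 271 CPM of that list in the other libraries, and their part in the Angpt1 value was not tested. Angpt1 in macrophages was 26.9 CPM at 28 months against 1.56 to 2.98 CPM in the other old libraries. Of its 68 counts, 65 lay in 1 cell of 12391 UMIs that also had 65 counts of Mecom, 16 of Meis1 and 3 of Kit and none of C1qa or C1qb, and without this cell the level was 1.19 CPM. Pdgfb in airway epithelial-like cells was 16.2 CPM at 20 months (5 counts) against 0 to 2.21 CPM. Pdgfrb in blood ECs was 0 CPM at 24 months, where 3 counts would be 21.1 CPM, against 16.7 to 19.1 CPM in the other old libraries, so its absence was not detectable at this depth.

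A pair of age changes ran in opposite directions in different cell types and were tested as differences, chosen after the values were seen, with the library as a block. The log2 fold change of Pdgfc with age in macrophages was 8.67 above that in ECs (SE 1.30, unadjusted p = 2.587e-05 and adjusted p = 0.191 by edgeR, 0 of 7378 genes called and 447 with an unadjusted p under 0.05), so it did not pass across all genes. That of Pdgfrb in SMCs was 4.57 above that in ECs (SE 1.26, adjusted p = 0.808 by edgeR, 0 of 7741 genes called and 460 with an unadjusted p under 0.05). Both rest on few young counts, for Pdgfc 2 in macrophages and 6 in ECs and for Pdgfrb 1 in SMCs and 5 in ECs. Pdgfc in macrophages and Pdgfrb in SMCs passed the filter through old libraries only, and neither passed it in ECs. The filter thus favoured the signs of these differences, and nothing is drawn from them.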

How the results depend on the processing

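Of 241 alternative values of the 20 fold changes, 230 kept their direction and their side of the threshold, and the cause of the other changes was not tested. Without a gene filter Tek in FBs turned to 0.23 and Pdgfc in macrophages was called at 5.98. With a term for the libraries that share barcodes Pdgfrb in FBs turned to −0.29 and Pdgfc in airway epithelial-like cells to 0.23. Pdgfc in macrophages fell from 5.66 to 2.58 and Pdgfb in ECs from 2.13 to 0.63. Fits with that term leave only the 24-month library to stand against the young ones, so they are no age effect over all old libraries. Pdgfc in SMCs turned to −0.013 with DESeq2, −0.17 without TMM and −0.34 with doublets kept. With 1 library left out, Pdgfc in SMCs ran from −0.79 to 0.43, Tek in ECs from −0.059 to 0.77, Tie1 in ECs from −1.20 to 0.20 and Pdgfd in SMCs from 1.39 to 2.58, the last being called at 2.37 without the 20-month library. Pdgfrb and Angpt2 in SMCs, Pdgfa in ECs and Pdgfc in macrophages had all their young counts in 1 library. Without the other young library their values were 2.16, 1.07, 1.02 and 5.43, and without that library the fitted values of 13.07, 11.98, 8.89 and 10.63 rest on no young count. All 106 alternative levels stayed within the SD of the libraries. For levels with 1 library left out this could not have come out otherwise, so nothing is drawn from those. The number of genes called in FBs fell from 3 to 0 with filterByExpr, with at least 1000 UMIs and with the term for shared barcodes, rose to 24 without a filter, and was 0 to 2 with 1 library left out. In SMCs it rose from 0 to 3 (DESeq2), 2 (no TMM), 2 (filterByExpr) and 40 (no filter), and was 0 to 156 with 1 library left out. Without a filter it was 9 in ECs, 43 in macrophages (Nrp1 being the 1 pathway gene), 169 in airway epithelial-like and 18 in B-like cells, where filterByExpr gave 24 and leaving out 1 library gave 0 to 67. DESeq2 called 3 in macrophages and 1 in airway epithelial-like cells. The difference for Pdgfc ran from 8.61 to 14.09 and that for Pdgfrb from 3.14 to 14.15 over the libraries whose omission left the gene tested. Both upper values come from leaving out the first young library. No young count of Pdgfc in macrophages or of Pdgfrb in SMCs was then left. The limit of 1000 UMIs left too few young cells for SMCs and ECs, and the term for shared barcodes could not be fitted in SMCs. No paired analysis was possible because the labels give no replicate number shared by the ages. Young depth, with 1 to 12 counts for most members per type, limits every age comparison.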
